A study of Rattus norvegicus with 4 samples.

Results

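The array of NRK-52E cells given 0.009% hydrogen peroxide (H2O2), the highest dose of the series, was compared with the array of cells given 0.003%, the lowest dose. These are 2 of the 4 arrays of the series, and the others hold untreated cells and cells given 0.006%. NRK-52E is a permanent line of rat kidney tubular epithelial cells, and the series asks which molecules from dying cells make the cells around them divide. Per the labels, confluent cultures of every group spent 1 h in DMEM holding 0, 0.003, 0.006 or 0.009% H2O2, were rinsed, and then stayed 12 h in DMEM lacking serum before total RNA was taken. Medium, exposure time and recovery time were thus the same for the control. Each dose was measured on 1 array of 1 culture, so no difference below has a replicate check or a p-value. The 2-fold limit used for counts only sorts differences by size. No source used here says whether detached cells were collected with the rest. Both arrays were compared over 23936 of 41007 probes, each called a feature here, that were well above background on 1 or both. Of 8963 genes with a name, 5845 were compared.

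H2O2 crosses membranes and oxidises protein thiols. Unfolded proteins in the cytosol release the transcription factor HSF1, which turns on heat shock chaperones through heat shock elements, and oxidation of KEAP1 frees NRF2, which turns on enzymes that make glutathione and reduce thioredoxin. Stress kinases that phosphorylate the initiation factor eIF2 slow translation and let ATF4 be made, which turns on genes of amino acid supply, while MAP kinases act on serum response factor to switch on early genes such as Egr1. In the kidney, tubule cells that survive an oxidant injury can lose their differentiated functions, re-enter the cell cycle and secrete growth factors and chemokines.

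Levels are given as the spot signal divided by the 75th percentile of the array's noncontrol spots, called the scaled level, and differences as log2 of 0.009% minus 0.003%. The error after ± is the scanner software's spot error of that difference, which leaves out the spread between cultures. Each array held 43379 noncontrol spots, the share of probes well above background ranged from 51.8 to 54.9%, and 0 spots were saturated. That percentile was 168 at 0.003% and 121 at 0.009%, while the array median was nearly equal, at 16.4 and 15.8. The spike-in probes, which detect RNA added during labelling, were brighter by 0.53 (log2, 8 probes) on the 0.009% array. Array median scaling therefore lowered each difference measured on both arrays by 0.42 and spike-in scaling lowered it by 1.0, and the median over all named genes, 0.12, became -0.30 and -0.92. With quantile normalization this median was 0.03 and with another background correction (normexp) it was 0.11. No source used here gives the amounts of RNA and spike-in for each array, and fewer cells and less RNA per cell cannot be told apart in these extracts. Doses follow the position on the shared slide, so the effects of position and dose cannot be told apart. Differences below are relative to the 75th percentile. So are all comparisons with the control, whose turns under the other settings are printed for some genes only. The percentile was 180 on the control array and 121 at 0.009%, while the medians of these arrays were nearly equal. Array median scaling thus lowers 0.009% levels relative to the control, and a small distance above the control can turn. In brackets after the median of a gene list stand its values under those of these 4 settings that turned its sign. For a single gene measured on both arrays, any difference above 0 but smaller than the spike-in shift falls below 0 with spike-in scaling. Such turns are printed for some genes only. Under the 75th percentile scaling, a list's count is to be read against the 8.9% of named genes at least 2-fold higher and the 5.59% lower. A share near these is no result about the list. List counts under the 4 other settings have other baselines, given here as all named genes higher and lower, of 5845 compared. They were 124 and 991 with array median scaling and 315 and 422 with quantile normalization. With spike-in scaling they were 25 and 2547, and with normexp 73 and 131.

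At the highest dose 2846 features were at least 2-fold higher than at the lowest dose, 11.9% of those compared, and 1351 were at least 2-fold lower, which is 5.64%. Of these, 1800 and 1148 were measured on both arrays. The others are bounds: a side not well above background took its own value or, if higher, the lowest signal of that array that was well above background, and such differences are written "at least". Higher features made up 67.8% of the 4197 that passed 2-fold, and 18.1% of them with array median, 1.63% with spike-in and 45.7% with quantile scaling and 46.4% with normexp. Among named genes, 520 (8.9%) were at least 2-fold higher and 327 (5.59%) lower by as much, and 24 and 10 passed 4-fold. Ctss at 1.0 and Ushbp1 just under 1.0 lay nearest to the upper limit on either side, and Gpr27 and Birc2, both at -1.0, nearest to the lower one. Of the 520 higher genes, 124, 297, 25 and 73 stayed at least 2-fold higher with array median, quantile, spike-in scaling and normexp. Array median and spike-in scaling move every measured difference down by a fixed amount, so they can only add to the lower genes. Of the 327 lower genes, 307 stayed at least 2-fold lower with quantile normalization. With normexp 317 of them had a value, 101 stayed at least 2-fold lower and all but 1 kept their sign.

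The higher genes lay mostly among the dimmer ones. The named genes measured on both arrays were cut into 5 groups of equal number by their signal. In the dimmest group the median difference was 0.41, and 11.3% passed 2-fold upwards against 4.96% downwards. In the next groups towards the brightest, the medians were 0.04, -0.06, -0.06 and 0.06. The share at least 2-fold lower was largest in the group next to the dimmest, at 10.1%, and in the brightest group 2.86% were higher and 1.15% lower. The 0.006% array, which took no part in choosing genes, lay between the other treated arrays in 71.5% of all named genes measured on both, in 97.9% of the higher and 97.6% of the lower ones. A wide gap between the outer arrays holds the middle one more often by construction.

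**Figure D1:**
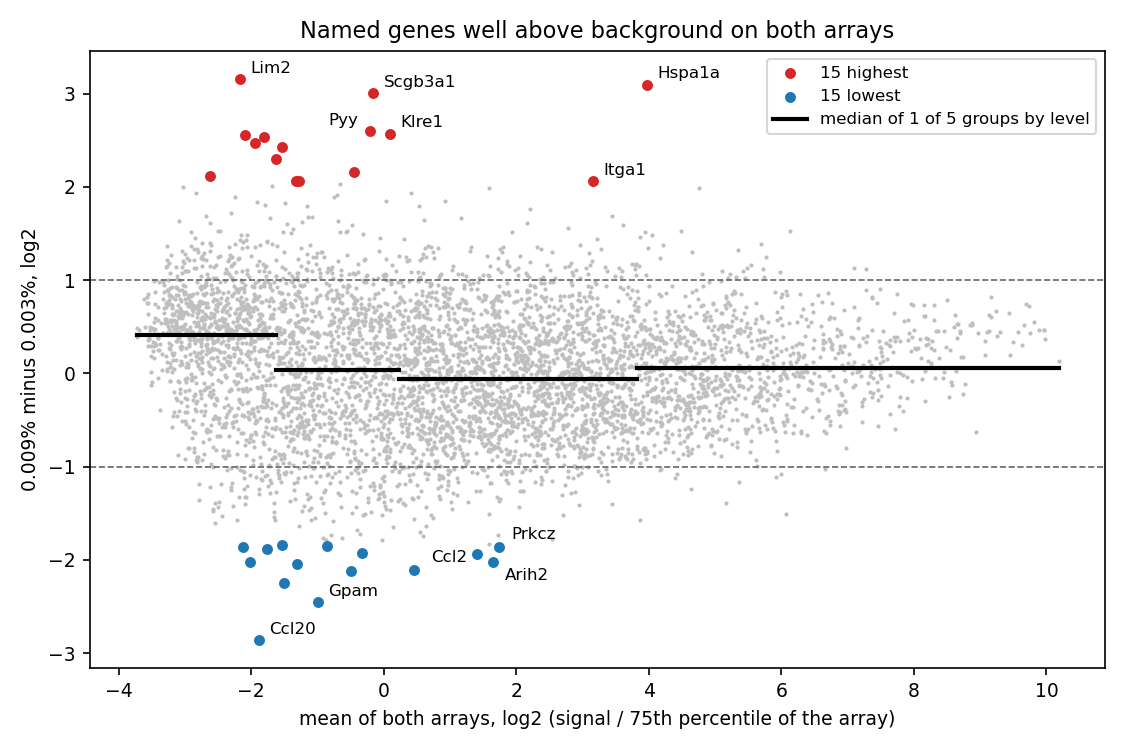
Log2 difference of 0.009% minus 0.003% (y axis) against the mean log2 scaled level of both arrays (x axis), 1 point for each named gene well above background on both; dashed lines mark 2-fold, black bars the median of each of 5 groups by level. Hspa1a at 3.1 and Itga1 at 2.06 are the bright genes among the 15 highest, and the dimmest group has the highest median, 0.41.

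The largest differences upwards joined a heat shock gene with genes best known from other tissues. Lim2, a membrane protein of the eye lens, had the highest difference of the genes measured on both arrays, 3.16 ± 0.33, with scaled levels of 0.0539, 0.0743, 0.246 and 0.664 over 0, 0.003, 0.006 and 0.009%, the order used throughout. Hspa1a, the inducible HSP70 chaperone, followed at 3.1 ± 0.07. Its levels were 0.124, 5.38, 19.6 and 46.0, so the highest dose stood 8.55-fold above the lowest and each dose stood above the one before. The signal cannot be split between Hspa1a and its near-identical copy Hspa1b. Scgb3a1, a secretoglobin of airway epithelium, was at 0.202, 0.316, 0.809 and 2.55, a difference of 3.01 ± 0.22. Pyy, a peptide hormone of gut endocrine cells, was at 0.0126, 0.353, 1.01 and 2.14 and 6.05-fold higher. The natural killer cell receptor genes Klre1 and Klrd1 were 5.95-fold and 4.35-fold higher, and Klre1 went from 0.436 to 2.59 after being close to 0 in the control, at 0.0125. All of these except Scgb3a1 and Hspa1a were not well above background on the control array.

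The remaining genes of the 15 highest were Cryba2, a lens crystallin (2.56), Csap1 (2.54), the prostaglandin D2 receptor Ptgdr2 (2.47), the sperm protein Spa17 (2.43), Ocm, which encodes the calcium-binding oncomodulin (2.30), the testis lactate dehydrogenase Ldhc (2.16), the small GTPase Rasd2 (2.07), the collagen-binding integrin Itga1 (2.06) and cytoglobin, Cygb (2.06). The largest bounds belonged to Asgr2, a liver asialoglycoprotein receptor subunit, at least 7.91-fold higher, Arxes1, at least 7.22-fold, Pbsn, the prostate protein probasin, at least 5.19-fold, the Fc receptor Fcgr2b, at least 4.84-fold, Arhgap36, at least 4.41-fold, and the granzyme Gzmc, at least 4.26-fold. Of these 21 genes, 15 were not well above background in the control, and the 0.006% array lay between the other treated arrays for 21. That many of them belong to other tissues was seen after their values were known. A further probe was at 1.02 for Rasd2 and at 2.79 for Hspa1a. Pbsn and Arhgap36 stood apart, since up to 0.006% they lay under the lowest signal well above background and only the 0.009% array, at 0.307 and 0.261, was well above background.

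Normexp, which holds dim signals up with an added offset, made the differences of the dim genes smaller: 1.30 for Lim2, 2.04 for Scgb3a1, 1.77 for Pyy, 1.83 for Klre1 and 1.19 for Asgr2. Hspa1a stayed at 2.93 and Itga1 at 1.78. The nearest upstream gene on the same strand was compared for 8 of the 21. The gap to it ranged from 4.63 kb for Ldhc to 912 kb for Arhgap36. Its difference ranged from -0.74 to at least 1.03 with a median of 0.21. Only 1 of the 8 was at least 2-fold higher, Gzmb, 19.0 kb from Gzmc. The values of Gzmb (at least 1.03) and of Prss21, upstream of Csap1 (at least 0.88), are bounds, as neither was well above background at 0.003%. Ldha, which lies next to Ldhc, was at -0.74 while Ldhc was at 2.16.

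**Figure D2:**
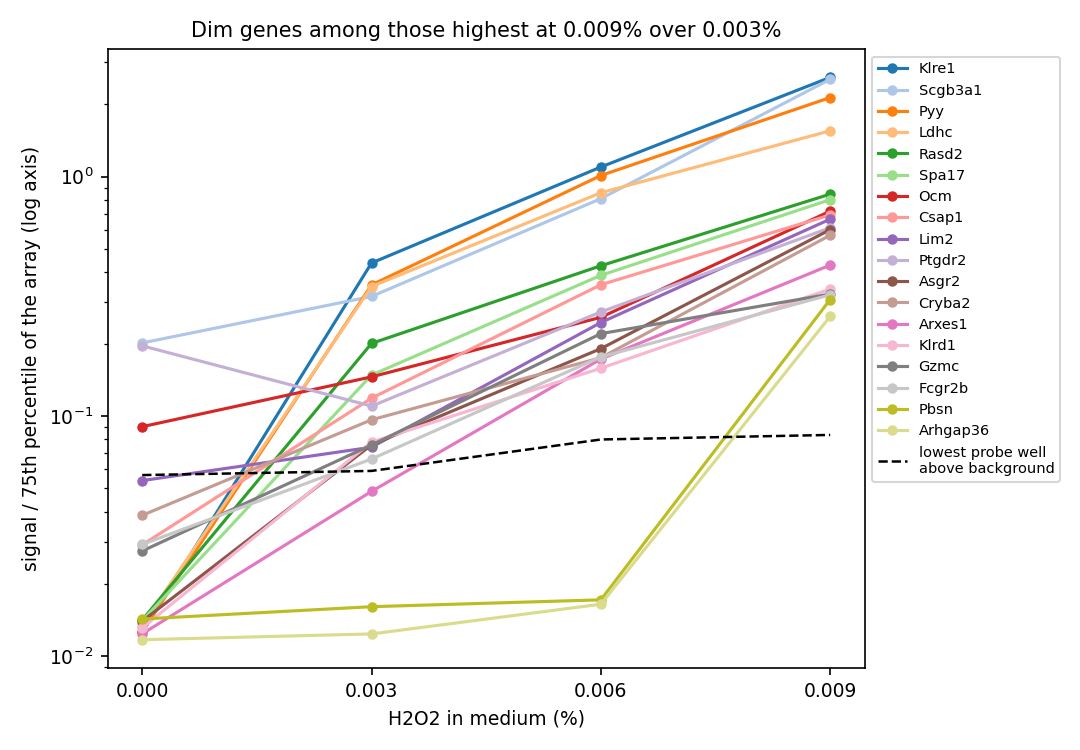
Scaled level (y axis, log) against H2O2 dose in percent (x axis), 1 line for each of the highest genes other than Hspa1a, Itga1 and Cygb; the dashed line is the lowest level well above background on each array, and values under it are measured but not distinguishable from background. Klre1 and Scgb3a1 end highest, at 2.59 and 2.55.

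The lowest gene was a chemokine. Ccl20, a chemokine that attracts cells bearing CCR6, was at 0.146, 0.730, 0.121 and 0.101, a difference of -2.86 ± 0.34 or 7.25-fold lower at the highest dose. Ccl2, the monocyte chemokine, was at 1.60, 5.2, 1.81 and 1.36 (-1.93 ± 0.06). For both, only the 0.003% array was high and the other treated arrays lay close to the control. Gpam, the mitochondrial acyltransferase that starts glycerolipid synthesis, was at 0.175, 1.18, 0.600 and 0.215 (-2.45 ± 0.24), and Abhd5, the activator of the lipase ATGL, at 0.248, 1.56, 0.868 and 0.411 (-1.92). Unlike the chemokines, Gpam and Abhd5 declined over the 3 doses and stayed above the control under the 75th percentile scaling. Gpam, at 0.215 against 0.175, would fall below its control with array median scaling. Cyp3a9, a steroid-metabolising cytochrome P450, was at 0.0143, 0.769, 0.378 and 0.163 (-2.24) and was not well above background in the control. Arih2, a ubiquitin ligase, went from 6.28 to 1.55 (-2.02) and Prkcz, an atypical protein kinase C, from 6.37 to 1.75 (-1.87).

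The rest of the 15 lowest were the mitochondrial adenylate kinase Ak4 (-2.12), Fam220a (-2.10), Zfp672 (-2.04), Narf (-2.03), the protein kinase C gene Prkce (-1.89), the chromatin protein Cdyl (-1.86), the scramblase Xkr8 (-1.85) and the asparaginase Aspg (-1.84). Most of the 15 had only 1 probe compared. Where a further probe was compared, it did not repeat the size for 5 genes. It was at -0.22 for Ak4, -0.32 for Fam220a, -0.24 for Prkce, 0.26 for Prkcz and -0.41 for Xkr8. For Arih2 and Zfp672 the further probe was at -1.08 and -1.42, lower but by less. Hpdl was at least 5.55-fold lower, the nicotinic receptor subunit Chrnb2 at least 4.94-fold, the glycosyltransferase Galnt1 at least 3.99-fold, the antiviral protein Zc3hav1 at least 3.54-fold, Stx11 at least 3.46-fold and Pmch at least 3.32-fold. The 0.006% array lay between the other treated arrays in 20 of these 21 genes. With normexp Ccl20 was at -0.91, Gpam at -1.24, Narf at -0.46 and Cdyl at -0.45, whereas Ccl2 was at -1.69 and Arih2 at -1.79.

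Of the cytosolic heat shock chaperones, co-chaperones and HSF1 targets, 25 of 40 were compared, 3 were at least 2-fold higher (12%, against 8.9% of all named genes) and 0 lower, and the median was 0.23 (-0.19 with array median scaling and -0.77 with spike-in scaling). The counts higher and lower were 2 and 2 with array median scaling, 3 and 0 with quantile normalization, 1 and 6 with spike-in scaling, and normexp left 2 and 0. Hsph1, the HSP110 partner of HSP70, had scaled levels of 1.01, 6.06, 14.0 and 19.5 (1.69 ± 0.20), and Zfand2a, an arsenite-inducible zinc finger protein, of 0.639, 9.26, 16.4 and 20.7 (1.16 ± 0.20). Like Hspa1a, both stood higher at each dose than at the one before. The RefSeq promoters of these genes are printed because HSF1 acts through them. They are the 250 bases before the start on the plus strand of GRCr8, at chr12:10427118-10427367 for Hsph1 and chr12:20275200-20275449 for Zfand2a. Capitals mark matches to GAANNTTC or TTCNNGAA, the letters searched for heat shock elements, which cover both strands. Whether HSF1 binds a match was not tested.
Hsph1: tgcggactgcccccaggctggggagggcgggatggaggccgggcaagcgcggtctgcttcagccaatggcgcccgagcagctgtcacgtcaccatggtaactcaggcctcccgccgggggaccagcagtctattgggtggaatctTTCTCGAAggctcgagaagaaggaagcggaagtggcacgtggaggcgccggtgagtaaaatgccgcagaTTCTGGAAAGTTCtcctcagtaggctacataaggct
Zfand2a: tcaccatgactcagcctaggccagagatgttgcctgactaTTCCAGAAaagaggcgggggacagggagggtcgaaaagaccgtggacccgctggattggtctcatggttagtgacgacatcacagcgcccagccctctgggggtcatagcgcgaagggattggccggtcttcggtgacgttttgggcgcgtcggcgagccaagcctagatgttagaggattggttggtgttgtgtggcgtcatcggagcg
Hsph1 held 3 matches, 105, 36 and 31 bases before the start, the last pair overlapping, and Zfand2a held 1 at 210 bases. The same letters were not in the window of Hspa1a, which says nothing about HSF1 there. Of 19 heat shock list genes with a promoter in the table, 13 (68.4%) held a match, against 13.2% of all 27457 promoters. That list was chosen to hold HSF1 targets, so its high share follows from the choice and is no result of these data. A match was in 11.5% of 399 genes at least 2-fold higher and 12.6% of 270 genes at least 2-fold lower, and in 10.5% of all 4783 named genes compared.

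Other chaperones were closer together on both arrays. Hikeshi, which carries HSP70 into the nucleus, was at 0.85, the HSP70 co-chaperone Bag3 at 0.78, the small heat shock proteins Hspb1 and Cryab at 0.76 and 0.74, and the mitochondrial chaperonin Hspe1 at 0.74. The constitutive Hspa8 was at 0.19, Hsp90aa1 at 0.12 and Dnaja1 at 0.23. The lowest members were the heat shock factor Hsf2 at -0.64 and Dnaja2 at -0.63. Spike-in scaling puts each of these below 0. The summed level of the list was higher with each dose, at 1065, 2145, 2624 and 2920.4.

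Among EGR, KLF and other immediate early genes, 20 of 25 were compared, and 1 was at least 2-fold higher and 0 lower, with a median of 0.36 (-0.05 with array median scaling and -0.64 with spike-in scaling). That gene was Egr1, a zinc finger factor switched on within minutes by growth and stress signals, with scaled levels of 3.33, 13.6, 30.0 and 54.2 (1.99 ± 0.07). Its promoter at chr18:26736828-26737077 (GRCr8, plus strand) is printed for the CArG boxes bound by serum response factor, in capitals.
Egr1: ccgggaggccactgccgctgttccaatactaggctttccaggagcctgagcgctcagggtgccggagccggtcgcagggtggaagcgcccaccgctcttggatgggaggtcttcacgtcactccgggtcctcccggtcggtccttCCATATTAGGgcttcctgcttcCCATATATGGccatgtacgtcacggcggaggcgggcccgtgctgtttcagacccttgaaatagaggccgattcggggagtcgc
There were 2 matches, 105 and 83 bases before the start. A CArG box was in 4 of 14 promoters of the list (28.6%), in 1.5% of all promoters, in 1.11% of all named genes compared, in 7 of 399 (1.75%) of the genes at least 2-fold higher and in 0 of 270 of those lower. The list was chosen as early genes, a class switched on through serum response factor, so its share is no result of these data. The next members were Ier2 (0.87), the synaptic early gene Arc (0.82) and the antiproliferative Btg2 (0.77). Klf4 was lowest at -0.31.

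AP-1 is a dimer of FOS and JUN proteins. Of its subunits, the Maf proteins and Atf3, 10 of 14 were compared, 2 were at least 2-fold higher and 0 lower, and the median was 0.19 (-0.23 with array median scaling and -0.81 with spike-in scaling). Jun was at 10.6, 26.0, 38.6 and 54.3 (1.06 ± 0.07) and Fos at 3.96, 9.68, 14.8 and 20.2 (1.06 ± 0.20), both higher with every dose. Atf3, a stress-induced repressor, was at 1.55, 44.2, 65.9 and 80.8 (0.87 ± 0.20), so that most of its distance from the control was already present at 0.003%. Fosl1, the FRA1 subunit, was at 0.102, 38.4, 44.7 and 29.8, far above the control at every dose but lower at 0.009% than at 0.003% (-0.37 ± 0.20), and Fosl2 was at -0.55. Sites for AP-1, CREB and NRF2 were searched in the same promoter windows. The CRE (TGACGTCA, both strands) was in 3.01% of the promoters of higher and 3.33% of those of lower genes, the AP-1 site (TGANTCA) in 5.01 and 4.81%, and the antioxidant response element core (TGACNNNGC, both strands) in 9.77 and 14.8%. Among all named genes compared these shares were 3.05, 5.35 and 12.9%, and among all promoters 1.70, 6.36 and 10.2%.

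The integrated stress response slows translation and lets ATF4 and CHOP act. Of the targets of both factors, 20 of 27 were compared, 0 were at least 2-fold higher and 2 lower (10%, against 5.59% of all named genes), and the median was -0.43. Array median scaling gave 0 higher and 5 lower, quantile normalization 0 higher and 3 lower, spike-in scaling 0 higher and 15 lower and normexp 0 higher and 3 lower. Asns, asparagine synthetase, was at 4.0, 25.2, 18.1 and 8.44 (-1.58 ± 0.20), and Shmt2, the mitochondrial serine hydroxymethyltransferase, at 12.8, 38.2, 29.8 and 16.1 (-1.24 ± 0.20). Both were highest at 0.003% and declined over the doses while staying above the control under the 75th percentile scaling. Shmt2, at 16.1 against 12.8, would fall below its control with array median scaling. Ddit3, which encodes CHOP, was at 3.57, 32.6, 33.8 and 17.7 (-0.88 ± 0.20), nearly equal at 0.003 and 0.006% and lower only at 0.009%. The pseudokinase gene Trib3 had the same shape, at 5.58, 126, 136 and 89.0 (-0.51). The amino acid transporter chains Slc7a5 and Slc3a2 were at -0.82 and -0.57. The sign of Vldlr, at -0.90, turned with normexp to 0.10. Atf4 itself was at 0.16 and Ppp1r15a, the phosphatase subunit that ends the response, at 0.23, sizes near the median spot error of 0.21. Cytosolic aminoacyl-tRNA synthetases, many of them ATF4 targets, had a median of -0.45 with 2 of 13 at least 2-fold lower and 0 higher (13 of 20 listed genes compared). The tryptophan enzyme Wars1 was at 1.06, 1.95, 2.05 and 0.887 (-1.14 ± 0.21) and the threonine enzyme Tars1 at 0.446, 2.39, 2.04 and 1.19 (-1.0 ± 0.21), and Sars1 and Nars1 were at -0.87 and -0.85.

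In the list of ER chaperones and ER-associated degradation, 22 of 32 were compared, with 0 at least 2-fold higher, 2 lower and a median of -0.25. Sel1l, the scaffold of the HRD1 ubiquitin ligase, was at 0.983, 2.55, 2.13 and 0.944 (-1.43 ± 0.21), and Creld2, an ER stress-inducible protein, at 3.49, 17.7, 15.7 and 6.67 (-1.41 ± 0.20). At the highest dose Sel1l was back at its control level. The main ER chaperones Hspa5 and Hsp90b1 were at -0.11 and -0.04, within that error, and Edem2 was highest at 0.74. Proteasome subunits (32 of 45 compared) had a median of -0.35, with 2 at least 2-fold lower and 0 higher. The regulatory subunit Psmd3 was at 11.7, 31.1, 23.6 and 14.3 (-1.12) and the immunoproteasome subunit Psmb8 at -1.04, while the interferon-inducible activator Psme1 was highest at 0.52. Of translation initiation and elongation factors, 29 of 47 were compared, none passed 2-fold, and the median was -0.26. Eif3d was lowest at -0.99, followed by the exchange factor subunit Eif2b1 at -0.90, and the elongation factors Eef2 and Eef1a1 were at 0.01 and 0.07.

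Of NRF2 targets, 29 of 35 were compared, 7 were at least 2-fold lower (24.1%, against 5.59%) and 2 higher, and the median was -0.40. Array median scaling gave 0 higher and 11 lower, quantile normalization 1 higher and 7 lower, spike-in scaling 0 higher and 21 lower and normexp 0 higher and 3 lower. Akr1b8, an aldose reductase that removes lipid aldehydes, was at 13.8, 113, 89.0 and 39.9 (-1.5 ± 0.20), and Txnrd1, thioredoxin reductase, at 6.32, 61.9, 48.0 and 27.5 (-1.17 ± 0.20). Both were well above the control at all doses and lower with each step above 0.003%. Further probes of Txnrd1 ranged up to 0.04. Gclc and Gclm, the subunits of the enzyme that limits glutathione synthesis, were at -1.15 and at least 2-fold lower, the transporter Abcc4 at -1.29, the leukotriene-reducing Ptgr1 at -1.27 and the quinone reductase Nqo1 at -0.93. Hmox1, haem oxygenase, went the other way, with levels of 0.790, 37.3, 55.8 and 54.0 (0.54 ± 0.07, -0.46 with spike-in scaling), and its levels at 0.006 and 0.009% were alike. The aldehyde oxidase Aox1 was highest at 1.38 ± 0.22, with levels of 0.459, 0.288, 0.487 and 0.748, and the epoxide hydrolase Ephx1 at 1.0. For enzymes that remove peroxide and superoxide, 21 of 25 were compared, 1 was at least 2-fold higher and 0 lower, with a median of -0.05. The methionine sulfoxide reductases Msrb2 and Msra were at 1.12 and -0.93, the mitochondrial superoxide dismutase Sod2 at -0.64, catalase, Cat, at -0.43 and the peroxiredoxin Prdx2 at 0.57.

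**Figure D3:**
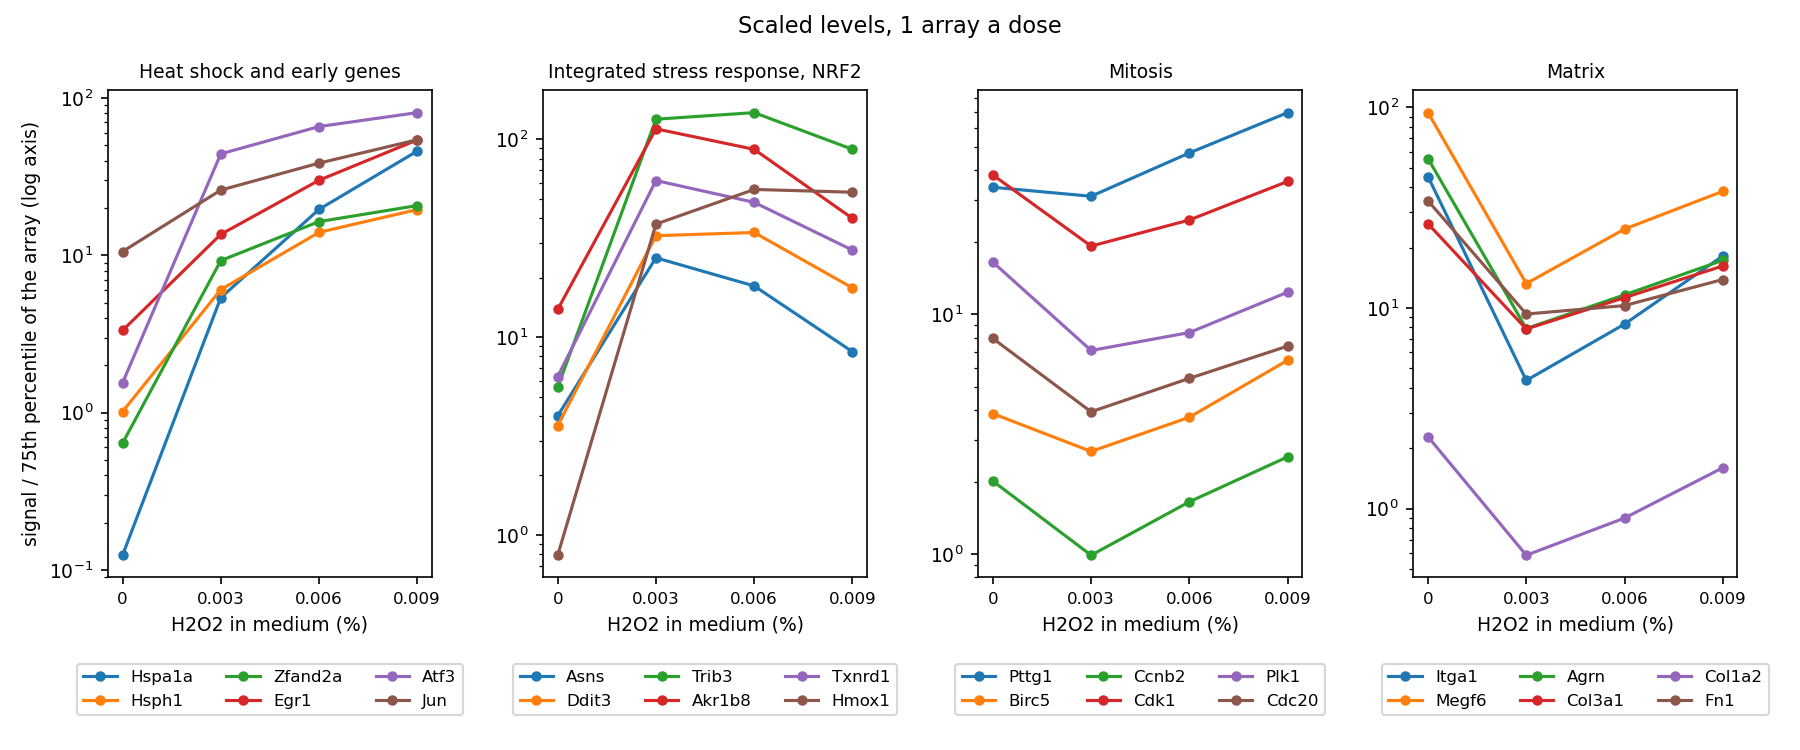
Scaled level (y axis, log) against H2O2 dose in percent (x axis) for 6 members of each of 4 groups, 1 array a dose. Hspa1a goes from 0.124 to 46.0, Asns peaks at 25.2 on the 0.003% array, and Ccnb2 and Itga1 are lowest there, at 0.988 and 4.35.

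All 15 mitosis genes compared, of 45 listed, had a difference above 0, and 14 lay above the median of all named genes, 0.12. Of the 15, 4 were at least 2-fold higher (26.7%, against 8.9% of all named genes) and 0 lower, and the median was 0.88 (-0.12 with spike-in scaling). With spike-in scaling only these 4 stayed above 0. The counts higher and lower were 0 and 0 with array median scaling, 4 and 0 with quantile normalization, 0 and 0 with spike-in scaling, and normexp left 3 and 0. Ccnb2, a cyclin that activates CDK1, was at 2.01, 0.988, 1.65 and 2.54 (1.36 ± 0.21), survivin, the product of Birc5, at 3.85, 2.68, 3.72 and 6.43 (1.26 ± 0.20) and Pttg1, securin, at 33.9, 31.1, 47.2 and 69.6 (1.16 ± 0.20). All 3 were lowest at 0.003% and, under the 75th percentile scaling, stood above the control at 0.009%. Ccnb2, at 2.54 against 2.01, would fall below its control with array median scaling. The kinase Aurkb was dim, at 0.114, 0.0806, 0.148 and 0.196 (1.28 ± 0.34). Cdk1 was at 0.90, the activator of the anaphase complex Cdc20 at 0.91, Ccnb1 at 0.88, Plk1 at 0.81 and Aurka at 0.10. Of Cdk1, Cdc20 and Plk1 the 0.009% level was above 0.003% but not above the control, at 35.9 against 38.2 for Cdk1.

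The earlier phases of the cycle did not move together. Of DNA replication genes, 18 of 39 were compared, 0 passed 2-fold in either direction, and the median was -0.04, with the polymerase subunit Pola2 lowest at -0.91 and the ribonucleotide reductase subunit Rrm2 highest at 0.81, where the sign of Rrm2 turned with spike-in scaling (-0.19). Of Myc and the G1 drivers and inhibitors, 15 of 23 were compared, 2 were at least 2-fold higher and 3 lower, with a median of 0.25 (-0.16 with array median scaling and -0.75 with spike-in scaling). The pocket protein Rbl2, a brake on E2F genes, was at 9.14, 2.26, 3.79 and 6.44 (1.51 ± 0.20), lowest at 0.003% and under the control at every dose, and Mycn was at 1.01. The D cyclin Ccnd2 was at 1.78, 2.26, 1.53 and 0.899 (-1.33 ± 0.21) and the MYC partner Max at -1.26, while Ccnd1 and Myc were at 0.70 and 0.25. The inhibitor Cdkn1c, at -1.05 by its brightest probe, had another probe at 1.37, the only gene of 1157 with more than 1 probe whose probes passed 2-fold in opposite directions. Of p53 targets, 14 of 25 were compared, 3 were at least 2-fold lower and 0 higher, and the median was -0.20. Tp53inp1 was at 0.327, 1.36, 0.780 and 0.424 (-1.68 ± 0.21), the AKT inhibitor Phlda3 at 3.78, 10.1, 7.48 and 4.11 (-1.30 ± 0.20) and the death receptor Fas at -1.09. Cdkn1a, the p21 inhibitor, was at 2.69, 45.7, 45.9 and 35.0 (-0.39 ± 0.06), far above the control throughout, and its dimmer probe was at -1.74.

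BCL2 family members, caspases and their regulators had a median of -0.52, with 35 of 43 compared, 4 at least 2-fold lower (11.4%, against 5.59%) and 0 higher. It was the lowest list median under the 75th percentile scaling but not under the other settings. With array median and spike-in scaling those of the aminoacyl-tRNA synthetases and the integrated stress response were lower. With quantile normalization the integrated stress response was lower, at -0.60 against -0.59. With normexp this list was at -0.31, above lists such as the aminoacyl-tRNA synthetases (-0.53) and the proteasome (-0.49). Array median scaling gave 0 higher and 16 lower, quantile normalization 0 higher and 6 lower, spike-in scaling 0 higher and 24 lower and normexp 0 higher and 1 lower. Fadd, the adaptor of death receptors, was at 1.57, 2.77, 1.51 and 0.965 (-1.52 ± 0.21), and Bmf, a BH3-only protein, at 1.41, 1.69, 0.504 and 0.617 (-1.45 ± 0.21). Both were under their control level at 0.009%. Bcl2 was at least 2.03-fold lower, and members on the opposing side of the pathway had differences of the same sign, such as the inhibitors Cflar (-0.95), Mcl1 (-0.75) and Birc2 (-1.0) beside the promoters of death Bcl2l11 (-1.0), Bak1 (-0.66) and Apaf1 (-0.64). Bad was highest at 0.53.

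Integrins, collagens, laminins and other matrix proteins were among the genes higher at the highest dose. Of 27 of 79 compared, 9 were at least 2-fold higher (33.3%, against 8.9%) and 1 was lower, and the median was 0.85 (-0.14 with spike-in scaling). The counts higher and lower were 3 and 1 with array median scaling, 8 and 1 with quantile normalization, 1 and 3 with spike-in scaling, and normexp left 3 and 0. Itga1 was at 45.2, 4.35, 8.31 and 18.2 (2.06 ± 0.20), Megf6, an EGF-repeat protein, at 94.2, 13.2, 24.7 and 38.2 (1.53 ± 0.20) and the collagen gene Col1a2 at 2.28, 0.585, 0.896 and 1.60 (1.45 ± 0.21). All 3 were highest in the control, lowest at 0.003%, and intermediate at 0.009%. Col3a1 had the same order, at 26.3, 7.85, 11.3 and 16.2 (1.04 ± 0.20), and Col5a3, Itga7 and the basement membrane proteoglycan Agrn were at 1.34, 1.17 and 1.13. Of the 3 members below 0, the laminin chain Lama3 was the only one at least 2-fold lower, at 0.257, 0.714, 0.357 and 0.256 (-1.48 ± 0.23). Fibronectin, Fn1, was at 0.57. Of the fibroblast markers, 4 of 11 were compared, 3 were at least 2-fold higher and 0 lower, with a median of 1.15. Thy1, Dcn and Lum had a named probe that was not well above background on either array. The genes compared include Col1a2 and Col3a1 themselves, the PDGF receptor Pdgfrb at 3.43, 0.763, 1.07 and 1.82 (1.25) and S100a4 at 0.57, whose sign turned with spike-in scaling (-0.43). Their summed level over the 4 arrays was 271, 199, 222 and 301, most of it S100a4, and their part in the matrix values was not tested.

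Extracellular proteases and their inhibitors (23 of 39 compared) had a median of 0.48 (-0.57 with spike-in scaling), 1 at least 2-fold higher and 0 lower. The metalloprotease Adam15 was at 193, 92.7, 129 and 203 (1.13 ± 0.20), the inhibitor Serpinb9 at 0.84, and the plasminogen activator inhibitor Serpinb2 lowest at 0.0384, 0.866, 0.910 and 0.497 (-0.80). Of cadherins, claudins and other junction proteins, 23 of 56 were compared, 1 was at least 2-fold higher and 1 lower, with a median of 0.21 (-0.20 with array median scaling and -0.79 with spike-in scaling). Nectin2, an adhesion molecule of adherens junctions, was at 4.33, 0.970, 1.69 and 2.28 (1.24 ± 0.21), the intestinal cadherin Cdh17 at 0.505, 0.606, 0.315 and 0.254 (-1.26 ± 0.23), and the kidney cadherin Cdh16 and Cldn19 at 0.94 and 0.95. Actin, myosin and tubulin genes (30 of 46 compared) had 2 members at least 2-fold higher, 0 lower and a median of 0.21 (-0.20 with array median scaling and -0.78 with spike-in scaling). Tuba4a was at 1.29, 4.68, 8.59 and 10.6 (1.18), higher with each dose, Tuba8 was at least 2.87-fold higher, and Tagln and Tpm1, targets of serum response factor, were at 0.94 and 0.88. Actb was at 226, 214, 246 and 273 (0.35 ± 0.20, -0.06 under array median scaling and -0.64 under spike-in scaling), and Gapdh at 157, 167, 146 and 138 (-0.27 ± 0.06).

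Genes of proximal tubule function were dim, and 17 of 33 were compared, with 2 at least 2-fold higher, 0 lower and a median of 0.81 (-0.19 with spike-in scaling). The glucose-6-phosphatase gene G6pc1 was at 0.0410, 0.143, 0.254 and 0.399 (1.48 ± 0.26) and the brush border peptidase Mme at 0.973, 0.376, 0.518 and 0.825 (1.13 ± 0.21), the latter under its control level at each dose. The glucose transporter Slc5a2 was at 0.97 and Gatm, which makes the creatine precursor, at 0.95. The median level of the list over both arrays was 0.261, within the dimmest of the 5 signal groups, whose median difference was 0.41. Tubule injury markers (18 of 25 compared) had 1 at least 2-fold higher, 1 lower and a median of 0.39 (-0.02 with array median scaling and -0.61 with spike-in scaling). The keratin Krt19 was at 0.369, 0.309, 0.741 and 1.15 (1.89 ± 0.22), and Cd44, the hyaluronan receptor, at 1.10, 10.8, 5.53 and 3.15 (-1.77 ± 0.20). Cd44 was highest at 0.003% and above the control throughout. Havcr1, which encodes KIM-1, was well above background only at 0.009%, at 0.0979, at least 1.66-fold higher. The osteopontin gene Spp1, Clu and Lcn2 were at 0.39, 0.40 and 0.15.

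The series asks about signals to neighbouring cells, and secreted growth factors and hormones were the largest of the lists that bear on it. Of 45 of 71 compared, 8 were at least 2-fold higher (17.8%, against 8.9%), 2 were lower (4.44%, against 5.59%), and the median was 0.39 (-0.02 with array median scaling and -0.62 with spike-in scaling). Array median scaling gave 2 higher and 6 lower, quantile normalization 5 higher and 4 lower, spike-in scaling 0 higher and 13 lower and normexp 2 higher and 1 lower. Fgf18 was at 10.5, 2.56, 4.64 and 7.86 (1.62 ± 0.20) and Fgf13, an intracellular member of the FGF family, at 1.57, 0.605, 1.03 and 1.5 (1.31 ± 0.21). Both were highest in the control and lowest at 0.003%. Ccn1, a matricellular protein and YAP target, was at 4.79, 9.92, 17.0 and 27.8 (1.49 ± 0.20), higher with every dose. The BMP antagonist Grem1 was at 1.22, Ccn5 at 1.15, Tgfb3 at 1.10, and Fgf1 and Fgf9 at least 1.09 and 1.07. Tgfa, a ligand of the EGF receptor, was at 0.840, 1.05, 0.486 and 0.316 (-1.73 ± 0.23), and Nrg1, a ligand of ERBB receptors, at 0.698, 3.25, 2.68 and 1.45 (-1.17 ± 0.20). The other ligands of the EGF receptor family lay on both sides, with Hbegf at 0.58, Areg at 0.30 and Ereg at -0.78. Wnt5a was at -0.97, Fgf2 at -0.62, Vegfa at -0.45 and Gdf15 at 0.70.

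Chemokines, cytokines and NF-kB targets (17 of 35 compared) had 2 members at least 2-fold lower, 1 higher and a median of -0.42. The lower ones were Ccl20 and Ccl2, described above, and the neutrophil chemokine Cxcl1 and the interferon-induced Cxcl10 were at -0.86 and -0.85. Il33, an alarmin kept in the nucleus, was at 1.08, 0.319, 0.546 and 0.780 (1.29 ± 0.22), under its control level at each dose. Of interferon response genes, 20 of 30 were compared, 1 was at least 2-fold higher and 2 lower, with a median of 0.11 (-0.33 with array median scaling, -0.13 with quantile normalization and -0.91 with spike-in scaling), the transcription factors Irf3 and Irf1 being the highest and lowest at 1.09 ± 0.20 and -1.05 ± 0.24. In prostaglandin synthesis, receptors and breakdown, 10 of 20 were compared, 0 were at least 2-fold higher and 1 lower, Ptgr1, and the median was 0.43 (-0.03 with array median scaling and -0.61 with spike-in scaling). Prostacyclin synthase, Ptgis, was at 3.73, 1.82, 2.58 and 3.55 (0.97 ± 0.20), the prostacyclin receptor Ptgir at 0.89 and the inducible cyclooxygenase Ptgs2 at 0.43. The prostaglandin D2 receptor Ptgdr2, named among the highest genes, was not on this list.

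Of YAP and TGF-beta targets, receptors and ID genes, 16 of 25 were compared, 2 were at least 2-fold higher and 2 lower, and the median was 0.31 (-0.10 with array median scaling, -0.06 with quantile normalization and -0.74 with spike-in scaling). The TGF-beta receptor Tgfbr2 was at 0.477, 1.42, 0.875 and 0.430 (-1.73 ± 0.21), and Tgfbr1 was at least 2.80-fold lower, while Ccn1 and the dominant negative factor Id4 were at 1.49 and 1.06, higher with each dose. MAPK phosphatases, Sprouty and Spred genes (9 of 18 compared) had 2 members at least 2-fold higher, 1 lower and a median of -0.29 (0.15 with normexp). Dusp1, an early phosphatase of p38 and JNK, was at 0.975, 1.26, 1.95 and 2.64 (1.07 ± 0.21), Dusp9 was at least 2.63-fold higher, and Dusp14 was at 2.10, 2.17, 1.28 and 0.857 (-1.34 ± 0.21).

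Cytosolic ribosomal proteins lay in a narrow range. Of 65 of 80 compared, 61 had a difference above 0, none passed 2-fold, and the range was -0.21 to 0.65 around a median of 0.36 (-0.06 with array median scaling and -0.64 with spike-in scaling). Of the 65, 58 lay above the median of all named genes, 0.12, and with spike-in scaling all 65 lay below 0. Rps2, the highest, had levels of 514, 554, 705 and 871. These are among the brightest probes of the array, and with quantile normalization the median was 0.04. Mitochondrial ribosomal proteins (22 of 96 compared) had none past 2-fold and a median of -0.14, from Mrpl46 at -0.91 to Mrpl13 at 0.69. Oxidative phosphorylation subunits (42 of 77 compared) had 1 at least 2-fold higher, 0 lower and a median of 0.29 (-0.13 with array median scaling and -0.71 with spike-in scaling). The one was Uqcrq, at 0.0245, 0.0612, 0.127 and 0.245 (2.0 ± 0.36), whose probe was close to background, and the next were Ndufb4 at 0.71 and Ndufa11 at 0.67. Cytochrome c, Cycs, was lowest at -0.61. Splicing factors (23 of 52 compared) had none past 2-fold and a median of -0.22, from Srsf2 at -0.60 to Hnrnpa1 at 0.48.

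In glycolysis and the hypoxia response, 29 of 32 were compared, 2 were at least 2-fold higher, 1 was lower and the median was -0.27. Hexokinase 2, Hk2, was at 0.0960, 0.601, 0.579 and 0.269 (-1.16 ± 0.23), and the muscle phosphofructokinase Pfkm at 18.1, 5.80, 8.96 and 13.4 (1.21 ± 0.20). Ldha, Pgk1 and Pgam1 were at -0.74, -0.66 and -0.62. Fatty acid oxidation and peroxisome genes (28 of 39 compared) had 3 at least 2-fold higher, 1 lower and a median of 0.38 (-0.04 with array median scaling and -0.62 with spike-in scaling). The peroxisomal Hsd17b4 was at 1.53, 0.852, 1.25 and 1.98 (1.22 ± 0.21), the dienoyl-CoA reductase Decr1 at 53.4, 36.1, 54.6 and 78.1 (1.11 ± 0.20), Eci1 at 1.02 and the peroxisome division factor Pex11a at -1.03. Of cholesterol and fatty acid synthesis, 25 of 28 were compared, 0 were at least 2-fold higher and 1 was lower, the SREBP retention factor Insig2 at 1.73, 1.90, 1.09 and 0.746 (-1.35 ± 0.21), and the median was 0.08 (-0.33 with array median scaling, -0.92 with spike-in scaling and -0.04 with normexp). A further probe of Insig2 was at -0.19.

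Among iron, zinc and copper genes (17 of 26 compared), 3 were at least 2-fold higher and 2 lower, with a median of 0.14 (-0.28 with array median scaling, -0.09 with quantile normalization and -0.86 with spike-in scaling). The zinc exporters Slc30a2 and Slc30a4 lay at opposite ends, at 1.76, 0.401, 0.773 and 1.16 (1.53 ± 0.21) and 0.578, 1.46, 1.01 and 0.522 (-1.49 ± 0.21). The iron hormone hepcidin, Hamp, was at 0.0914, 0.698, 1.11 and 1.47 (1.07 ± 0.21), higher with each dose, and the iron sensor Ireb2 at -1.5, with a further probe at 0.15. Cytochromes P450, AhR targets and conjugating enzymes (16 of 30 compared) had 2 at least 2-fold lower, Cyp3a9 and Cyp1a1, 0 higher and a median of 0.18 (-0.23 with array median scaling, -0.17 with quantile normalization and -0.82 with spike-in scaling). Cyp1a1, the classic target of the aryl hydrocarbon receptor, was at 1.15, 0.758, 0.315 and 0.274 (-1.47 ± 0.07), under the control at every dose. Lysosome, V-ATPase and autophagy genes (33 of 48 compared) had 1 at least 2-fold lower, the proton pump subunit Atp6v1b2 (-1.02), 0 higher and a median of 0.12 (-0.29 with array median scaling, -0.87 with spike-in scaling and -0.04 with normexp). The secretory pathway and SNARE list (43 of 57 compared) had 1 at least 2-fold higher, Vamp1 (1.17), 2 lower, Bet1l (-1.01) and Gosr1 (-1.02, with a further probe at 0.78), and a median of 0.02 (-0.40 with array median scaling, -0.98 with spike-in scaling and -0.10 with normexp).

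**Figure D4:**
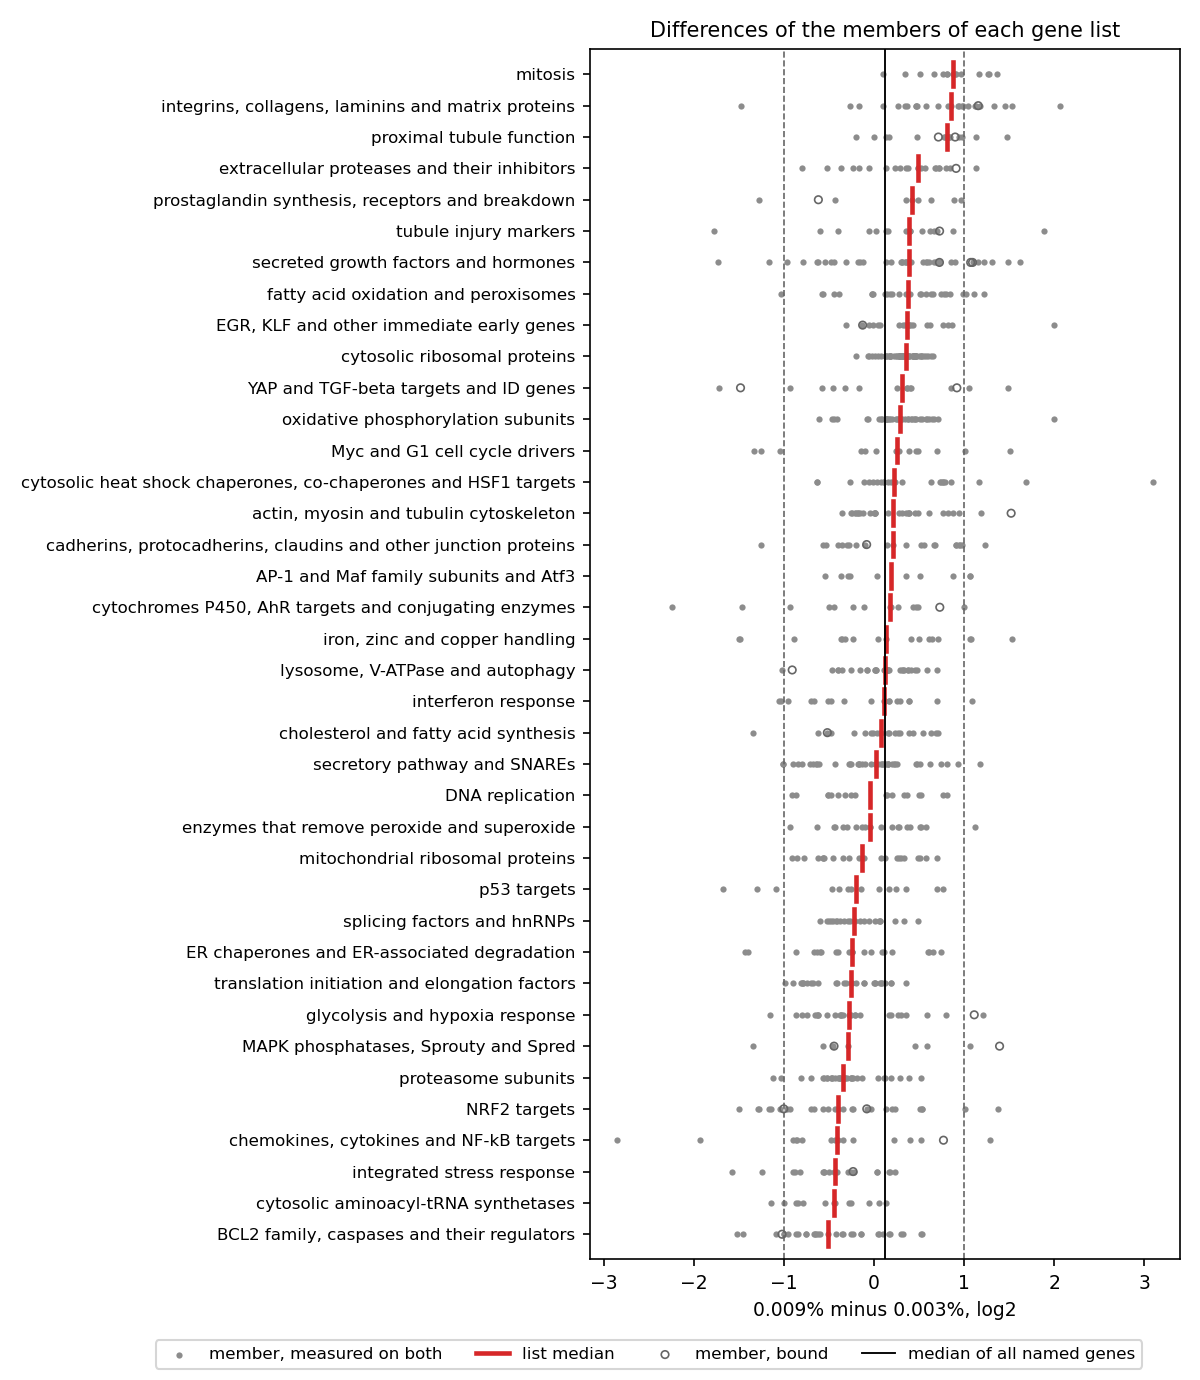
Log2 difference of 0.009% minus 0.003% (x axis) of each member of the pathway lists (y axis, ordered by median); filled points were measured on both arrays, open points are bounds, red bars are medians and dashed lines mark 2-fold. Medians run from -0.52 to 0.88 around 0.12 for all named genes, all under the 75th percentile scaling.

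**Figure D5:**
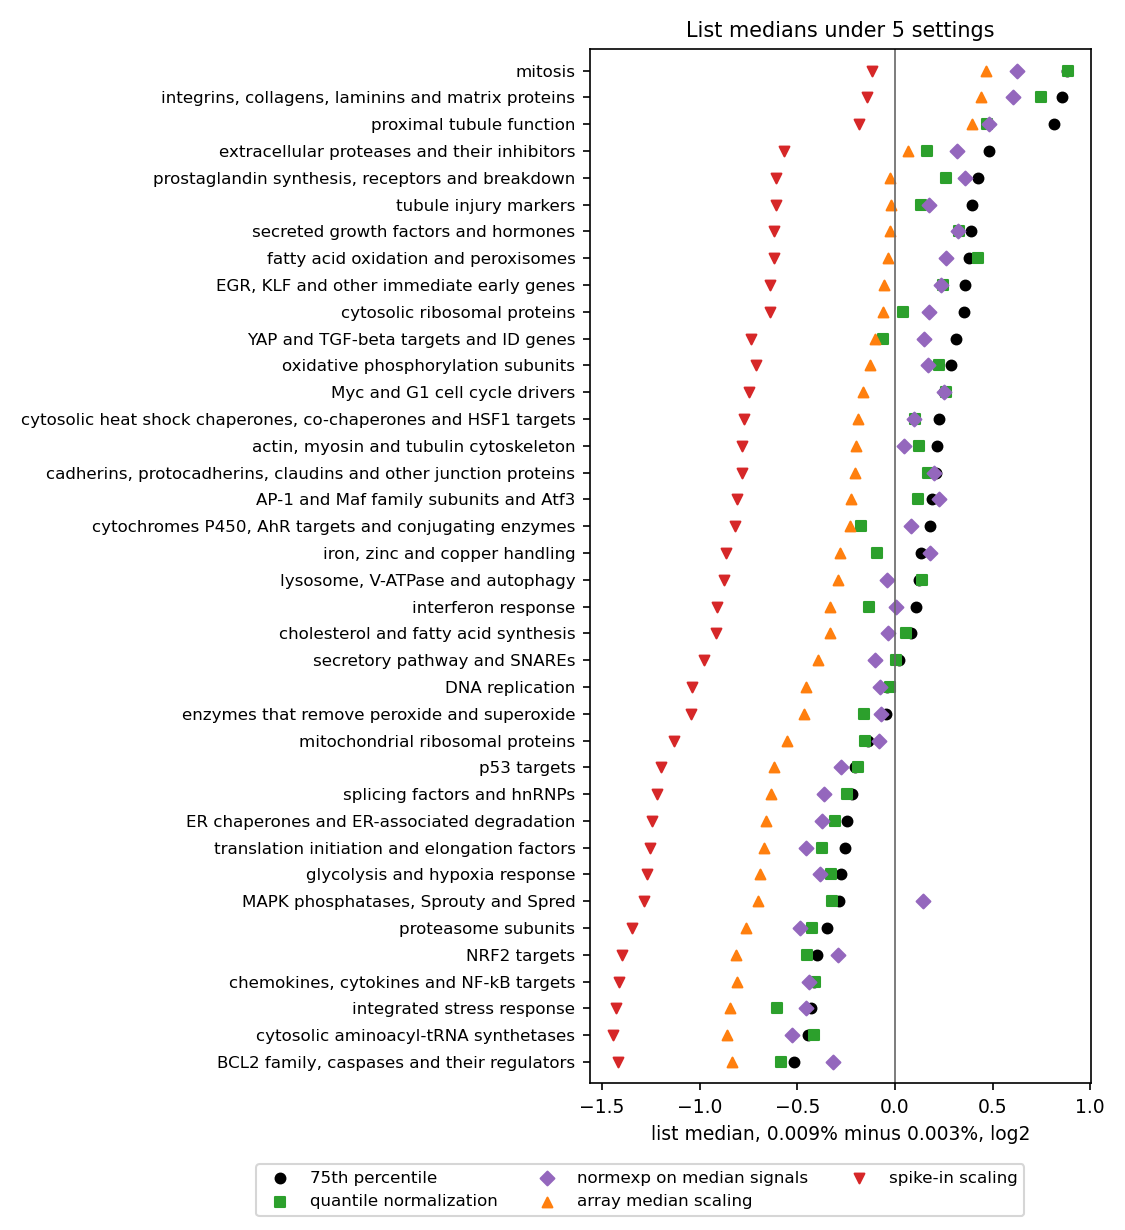
Median log2 difference of 0.009% minus 0.003% (x axis) of each pathway list (y axis) under the 75th percentile scaling and 4 other settings, 1 symbol each. Mitosis is at 0.88 with the 75th percentile and -0.12 with spike-in scaling, and the apoptosis list at -0.52 and -1.42.

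In the plot of settings, array median and spike-in scaling move all differences measured on both arrays by 1 amount and so keep their order. Normexp moved the MAPK phosphatase list from -0.29 to 0.15.

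The labelled cell type was set against its markers. Of the 11 epithelial markers listed, 9 had a named probe, 6 were well above background on either array, none passed 2-fold, and the median was 0.50 (-0.49 with spike-in scaling). Krt8 was bright, at 59.3, 55.8, 43.6 and 36.9 (-0.60 ± 0.20), lower with each dose, and Krt18 was at 0.0646, 0.300, 0.436 and 0.552 (0.88 ± 0.22). Cdh1, E-cadherin, was well above background at 0.003% and not at 0.009%, and Cdh2, N-cadherin, the cadherin of proximal tubule cells, was dim, at 0.312, 0.0708, 0.0835 and 0.140. Of endothelial markers 6 had a named probe, and they were represented by Kdr alone of 10 listed, at 0.107, 0.202, 0.246 and 0.322 (0.67 ± 0.25, -0.33 with spike-in scaling). Macrophage markers (7 of 11 compared) had 1 at least 2-fold higher, the dim Aif1, by at least 2.71-fold, 0 lower and a median of 0.13 (-0.12 with array median scaling, -0.32 with quantile normalization and -0.70 with spike-in scaling), and their summed level was 42.7, 27.8, 23.0 and 24.0, most of it Cd14, at 39.7, 24.2, 18.4 and 19.0. Itgam, Lyz2 and C1qa of the macrophage list were not well above background on either array, nor were Pecam1, Flt1, Emcn, Esam and Cldn5 of the endothelial list or Epcam and Pax8 of the epithelial list.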

How the data were processed

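Total RNA of 4 cultures, 1 per dose, was labelled with Cy3 and hybridised to 1-colour Agilent arrays (design 014879, 41012 probes, annotated on rn4). Per the file headers, the authors read them with the Agilent Feature Extraction software, version 10.7.3.1 and protocol GE1_107_Sep09, and the processed signal is a linear intensity after background subtraction and detrending, not scaled between arrays. The values of the table deposited by the authors are a linear ratio. In 100% of the probes such a value equalled the mean processed signal of a probe divided by the array median of noncontrol spots, to within 1e-06. Its columns had medians of 0.962, 0.955, 0.965 and 0.972, and it served as an alternative.

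Spots flagged as non-uniform or population outliers were left out, log2 signals were averaged per probe and scaled to the 75th percentile of noncontrol spots, and 41007 probes remained. RefSeq accessions named 10834 probes (26.4%) through a table of rat genes on GRCr8, the build of the printed RefSeq promoters. A gene took its brightest probe. Python 3.11.15 with pandas 2.3.3 was used, and limma 3.58.1 in R 4.3.3 for normexp (offset 50). The alternatives were array median, quantile and spike-in scaling, normexp, other filters on dim or flagged spots, the deposited table, the mean of a gene's probes and centring on the median of all features. The deposited files hold no mean signal, so normexp was run on the median signal, a choice made after the files were seen, as was the centring. The calculation was tested on simulated data.

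The comparison and its 42 gene lists were chosen with earlier results of these data known. Named in the text are the 15 highest and 15 lowest genes, the 6 largest bounds each way, up to 4 members of each list with the largest difference, and a fixed set of reference and stress genes. Other list members named, such as Trib3, Cdk1, Plk1, Cdc20, Agrn and Fn1, were picked after their values were seen. With 1 array per dose no test was run, and precision is limited by the number of arrays.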

Additional observations from a re-analysis of the deposited data

How the results depend on the processing

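No paired analysis was possible because each dose has 1 array, and for the same reason no replicate could be left out. Counts are given in the order features at least 2-fold higher and lower, then named genes at least 2-fold higher and lower. They were 2846, 1351, 520 and 327, and became 860, 3903, 124 and 991 with array median scaling and the same with the authors' value table. With spike-in scaling they were 167, 10080, 25 and 2547, with normexp on the median signals 366, 423, 73 and 131, and after centring on the median of all features 1886, 2059, 306 and 510. Quantile normalization gave 1624 features and 315 genes higher, the lower counts staying within 1.5 times. Requiring both arrays to be well above background left 1800 features and 341 genes higher. Without any filter or bound, 7841 features were higher and 2060 lower, and 1506 genes were higher. Keeping the outlier spots or averaging a gene's probes moved no count by 1.5 times. Cdkn1c turned from -1.05 to 0.062 when its probes were averaged. Normexp on the mean signal was not run because the files hold no such column. Higher genes made up 61.4% of the named genes past 2-fold, 11.1% with array median, 42.7% with quantile, 0.972% with spike-in scaling, 35.8% with normexp, 54.0% with both arrays above background, 77.6% without a filter and 37.5% after centring. The shifts of array median and spike-in scaling are fixed amounts for all measured differences. Which scaling is nearest to RNA per cell was not tested. Of the 520 higher genes, 179 rest on a bound because their signal at 0.003% was not well above background.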
